A study of Mus musculus with 16 samples.

Results

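The receptors by which neutrophils find their way to infected or injured tissue were examined in liver neutrophils that either carried or lacked the receptor for interferon gamma (IFN-gamma). The set holds 10 genes, taken by symbol: the chemokine receptors Cxcr1, Cxcr2, Cxcr4 and Ccr1, the atypical receptor Ccrl2, the formyl peptide receptors Fpr1 and Fpr2, the lipid receptors Ptafr and Ltb4r1, and the complement receptor C5ar1. Each symbol matched 1 of the 54532 identifiers of the count table, and all 10 passed the low-count filter, which kept 9851 genes. RNA came from 8 mixed bone marrow chimeras, numbered 2 to 9, and each mouse gave 1 Ifngr1_KO and 1 WT library. The Ifngr1_KO group holds Ifngr1-/- neutrophils sorted as CD45.2+ cells, and the WT group holds wild-type neutrophils sorted as CD45.1+ cells from the same livers. All hosts were wild type, of the C57BL/6 strain by label, were irradiated with about 1000 cGy, received both marrows at 50% each and reconstituted for 8 weeks. All carried MC38 flank tumours, a colon carcinoma line, and all were treated with an agonist antibody against CD40 (aCD40) 1 week after tumour injection and sampled 2 days later. Every library therefore comes from a treated, tumour-bearing mouse, and no untreated group is part of the comparison. Marrow donor, CD45 type and sort gate go with genotype in every mouse, so differences due to them and to Ifngr1 cannot be told apart. The age and sex of the mice are not given in the labels used here, and neutrophils that the hosts may have kept were not measured.

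Most of these receptors are seven-transmembrane proteins that signal through the inhibitory G protein Gi. Neutrophils use them in an order: chemokines and leukotriene B4 recruit cells out of the blood and relay the signal between cells, while formyl peptides and the complement fragment C5a act as end-point signals at the site of damage. CXCR2 draws neutrophils out of the marrow and CXCR4, the receptor for CXCL12, holds them there, so that the balance of the pair sets release and return. Promoters of genes that interferons induce often carry the gamma-activated sequence (GAS) or the interferon-stimulated response element (ISRE).

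The promoter windows of 4 receptors are shown because 3 of them, Cxcr4, Fpr1 and Ptafr, passed the test for a genotype difference and the fourth, Fpr2, is the only one of the 10 genes with a GAS match. Each window runs from 250 bases before to 50 bases after the annotated start in RefSeq, build GRCm38.p6. Capitals mark the first transcribed base and every match on either strand to the searched motifs: GAS (TTCNNNGAA), ISRE (GAAA and GAAA parted by any 2 bases), the core bound by the myeloid factor PU.1 (GAGGAA), the TATA box (TATAAA) and the site of the factor NRF1 (GCGCA and GCGC parted by any 1 base). Cxcr4 is on the minus strand at chr1:128592250-128592549, Fpr1 on the minus strand at chr17:17883890-17884189, Fpr2 on the plus strand at chr17:17887574-17887873 and Ptafr on the plus strand at chr4:132563817-132564116.
Cxcr4: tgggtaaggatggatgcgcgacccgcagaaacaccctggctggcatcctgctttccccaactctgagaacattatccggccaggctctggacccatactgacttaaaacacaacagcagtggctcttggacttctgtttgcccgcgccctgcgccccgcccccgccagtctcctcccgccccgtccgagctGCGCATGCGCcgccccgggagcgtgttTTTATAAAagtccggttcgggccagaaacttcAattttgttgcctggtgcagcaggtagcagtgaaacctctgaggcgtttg
Fpr1: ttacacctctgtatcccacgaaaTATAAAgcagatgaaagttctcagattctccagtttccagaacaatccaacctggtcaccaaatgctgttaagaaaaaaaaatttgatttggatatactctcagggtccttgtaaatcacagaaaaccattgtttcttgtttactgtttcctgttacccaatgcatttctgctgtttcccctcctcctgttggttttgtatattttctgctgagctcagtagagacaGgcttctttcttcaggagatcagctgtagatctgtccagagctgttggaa
Fpr2: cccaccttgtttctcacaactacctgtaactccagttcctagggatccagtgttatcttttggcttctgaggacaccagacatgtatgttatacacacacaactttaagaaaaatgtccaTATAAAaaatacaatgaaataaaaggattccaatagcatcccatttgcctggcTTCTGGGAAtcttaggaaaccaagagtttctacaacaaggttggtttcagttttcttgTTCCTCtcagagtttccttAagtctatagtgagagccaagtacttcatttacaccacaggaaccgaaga
Ptafr: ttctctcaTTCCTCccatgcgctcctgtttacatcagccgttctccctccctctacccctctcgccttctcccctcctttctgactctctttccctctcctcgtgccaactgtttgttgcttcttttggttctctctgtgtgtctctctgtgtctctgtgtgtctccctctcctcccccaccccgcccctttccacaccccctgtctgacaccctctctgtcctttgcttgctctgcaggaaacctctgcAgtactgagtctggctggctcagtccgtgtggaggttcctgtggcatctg
The Cxcr4 window holds an NRF1 match that starts 59 bases before the first transcribed base, and overlapping TATA matches on both strands that start 30 and 32 bases before it. The Fpr1 window holds a TATA match 227 bases before the start. The Fpr2 window holds a TATA match 130 bases before the start, the GAS match 77 bases before it and a PU.1 core 19 bases before it. Ptafr holds a PU.1 core 242 bases before its start. None of the windows of the 10 genes held the ISRE letters. Of 32851 windows of the same length, 8.3% held a GAS match, 3.44% an ISRE match, 28.3% a PU.1 core, 13.6% a TATA match and 4.6% an NRF1 match. A match is a run of letters and was not measured as a binding site here.

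The libraries held 12.5 to 16.9 M estimated counts in Ifngr1_KO and 13.1 to 21.7 M in WT. Ifngr1 itself checked the labels: it averaged 83.9 ± 29.5 CPM (counts scaled to library size by the TMM method) in Ifngr1_KO and 305 ± 46.6 CPM in WT (SD, n = 8), with no overlap. Of the marker lists, the 14 neutrophil genes had the highest sums, at 34616 to 96186 CPM in Ifngr1_KO and 39655 to 68262 CPM in WT. S100a8 averaged 18576 ± 11261 CPM in Ifngr1_KO and 13938 ± 3814 CPM in WT. S100a9 averaged 11881 ± 5637 CPM in Ifngr1_KO and 11986 ± 2698 CPM in WT. The 10 T and NK cell markers summed to 4.79 to 26.8 CPM in Ifngr1_KO and 5.21 to 18.7 CPM in WT. Vsig4, a Kupffer cell marker, was at 0 in all 16 libraries. Other genes listed for monocytes and macrophages were present. Csf1r averaged 1287 CPM in Ifngr1_KO and 1497 CPM in WT, and C1qb averaged 13.3 CPM in Ifngr1_KO and 14.8 CPM in WT. Some libraries stood apart. Mitochondrially encoded mRNA made up 0.475 to 2.503% of counts in Ifngr1_KO and 0.294 to 1.19% in WT, was higher in Ifngr1_KO in 6 of 8 mice, and was highest in the Ifngr1_KO library of mouse 7. All 4 libraries of mice 5 and 9 lay below the other 12 for 270 genes, against at most 28 genes for any other pair of mice. For the receptors and the called pathway genes, calls that change without these mice are given.

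Among the 10 receptors, Cxcr4, Fpr1 and Ptafr fell in Ifngr1_KO neutrophils, none rose and 7 did not pass the threshold (edgeR quasi-likelihood test with mouse as a block, Benjamini-Hochberg adjusted over 9851 genes, threshold 0.05). The background for this count is that 2.32% of all genes tested fell and 0.477% rose, 2.8% in all. The changes were modest: Ifngr1_KO kept 60.3% of the WT level of Cxcr4, 75.1% of Fpr1 and 72.7% of Ptafr. The median log2 fold change, Ifngr1_KO over WT, was -0.34 over the 10 receptors and 0.046 over all genes tested. Without mouse 7 the count of receptors that fell was 6, with Fpr2, C5ar1 and Ccrl2 added, against a background of 3.34% of genes that fell and 0.78% that rose. Without mice 5 and 9 it was 0, against 1.16% of genes that fell and 0.13% that rose. It was also 0 without the mouse block, where 216 genes fell and 52 rose, against 229 and 47 with the block. With mitochondrial share added to the fit it was 0 again, and there 85 genes fell and 8 rose. DESeq2 called 5 receptors lower (5.81% of genes) and 2 higher (4.95%), and limma-voom called 6 lower (4.31%) and 0 higher (1.75%).

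**Figure D1:**
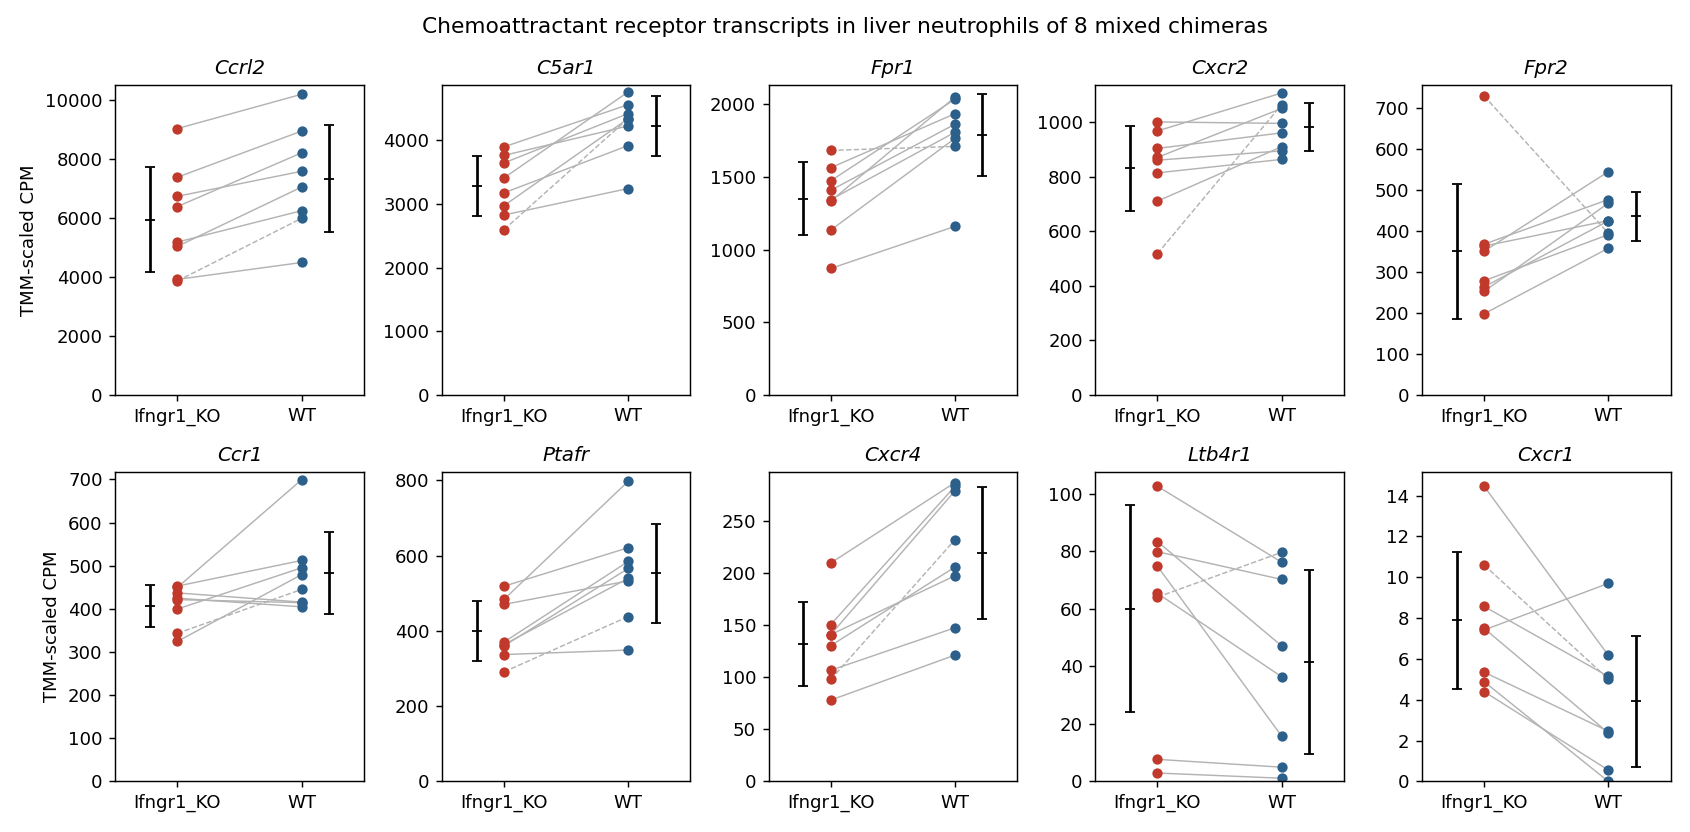
TMM-scaled CPM (y axis, from 0) of each receptor in the 8 Ifngr1_KO libraries (left, red) and the 8 WT libraries (right, blue), with lines joining the libraries of 1 mouse (dashed for mouse 7) and the mean ± SD in black. The lines of Cxcr4, Fpr1, Ptafr, Ccrl2 and C5ar1 slope the same way in 8 of 8 mice, while the ranges of the groups overlap for every receptor.

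Cxcr4 had the lowest log2 fold change of the receptors in the fit with mouse as a block. With the mitochondrial covariate Fpr2 was lower, at -0.90. The level of Cxcr4 ran from 78.1 to 209.6 CPM in Ifngr1_KO libraries, with a median of 136 CPM. In WT libraries Cxcr4 ran from 121 to 287 CPM, with a median of 219 CPM. The ranges overlapped, but the Ifngr1_KO library was the lower one in all 8 mice. The log2 fold change of Cxcr4 was -0.73 (SE 0.12, edgeR adjusted p = 0.00651). Cxcr4 kept its call when any 1 mouse was left out (-0.77 to -0.66, adjusted p = 0.00324 to 0.0267), lost it without mice 5 and 9 (-0.65, adjusted p = 0.0988), without the mouse block (-0.73, 0.0779) and in a fit with the mitochondrial share added (-0.49, 0.272). In mice 2 and 4, the mice whose Ifngr1_KO library had the lower mitochondrial share, the Cxcr4 differences on the log2(CPM + 1) scale were -0.63 and -0.48. Cxcr4 lies on chromosome 1 (ENSMUSG00000045382, 128588199 to 128592293, minus strand, mm10), 9.47 Mb from Ptprc, the gene of the CD45 types that the sort used. Within 20 Mb of Ptprc, 7 of 123 genes tested fell and 2 rose, which is 7.32% called against 2.74% elsewhere. Cxcr4 itself is among the 7 and adds to that share. For Cxcr4, donor sequence around Ptprc and the loss of Ifngr1 cannot be told apart.

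CXCR2, which binds CXCL1, CXCL2 and related chemokines, is the main receptor by which mouse neutrophils enter tissue. Cxcr2 lay between 518 and 1001 CPM in Ifngr1_KO libraries, with a median of 866 CPM, and between 864 and 1108 CPM in WT libraries, with a median of 979 CPM. The lowest Ifngr1_KO value was that of mouse 7, and the groups overlapped. The log2 fold change of -0.26 (SE 0.12, edgeR adjusted p = 0.325) did not pass the threshold, it was -0.15 without mouse 7, and it was -0.0082 (adjusted p = 0.999) with the mitochondrial covariate. The ratio of Cxcr4 to Cxcr2, computed from values per exon length, was 0.278 ± 0.104 in Ifngr1_KO and 0.375 ± 0.100 in WT (SD, n = 8), and it was lower in Ifngr1_KO in 8 of 8 mice. This ratio is a description and was not tested, since the receptors were chosen with earlier results known.

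**Figure D2:**
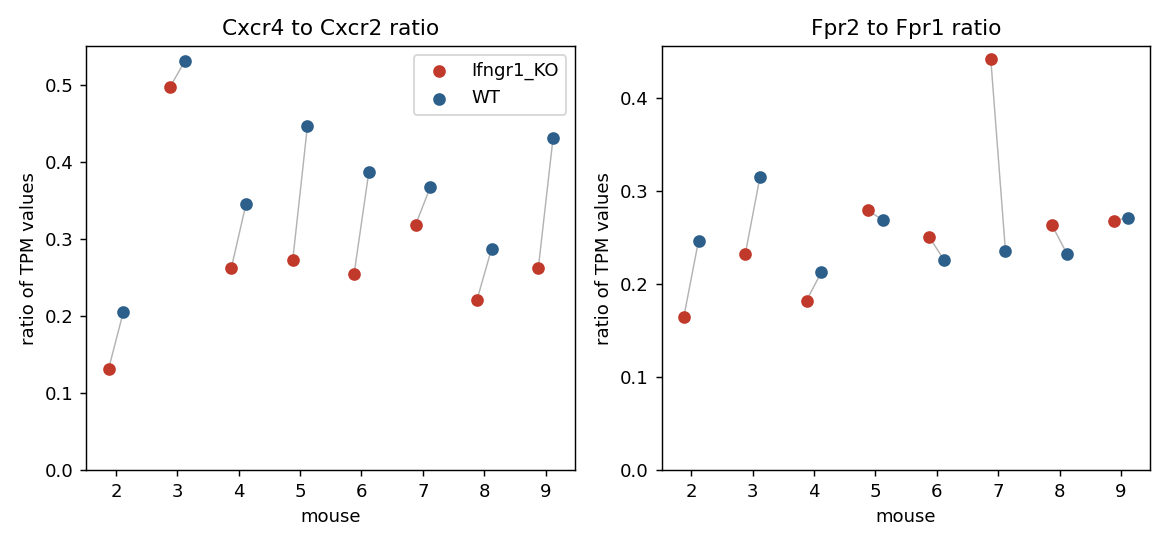
Ratio of TPM values (y axes, from 0) of Cxcr4 to Cxcr2 (left panel) and of Fpr2 to Fpr1 (right panel) in each mouse, Ifngr1_KO in red left of WT in blue. Cxcr4 to Cxcr2 was lower in Ifngr1_KO in all 8 mice, and Fpr2 to Fpr1 was lower in 4 mice and higher in 4, with its highest value, 0.442, in the Ifngr1_KO library of mouse 7.

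Cxcr1, a close relative of Cxcr2 on the same stretch of chromosome 1, was the least abundant of the 10. It had 61 to 217 counts per Ifngr1_KO library and 0 to 117 counts per WT library, which is 4.40 to 14.5 CPM in Ifngr1_KO and 0 to 9.70 CPM in WT. Cxcr1 was higher in the Ifngr1_KO library of 7 of 8 mice, mouse 4 being the exception. The log2 fold change of 1.58 had an SE of 0.68 and did not pass the threshold (edgeR adjusted p = 0.279). The WT library of mouse 5 had 0 counts, and without mouse 5 the value was 1.17 (SE 0.40, edgeR adjusted p = 0.197). It was 1.01 without the mouse block and 1.03 with limma-voom, neither of them called. DESeq2 on all mice called Cxcr1 at an adjusted p of 0.0493.

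Ccr1, a receptor for CCL3, CCL5 and in mice CCL6 and CCL9, ran from 325 to 453 CPM in Ifngr1_KO, with a median of 423 CPM, and from 405 to 699 CPM in WT, with a median of 462 CPM. It was lower in Ifngr1_KO in 5 of 8 mice, and its log2 fold change of -0.24 (SE 0.11, edgeR adjusted p = 0.326) did not pass the threshold. The highest WT value, in mouse 9, was set apart from the other 7.

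Ccrl2, an atypical receptor that binds chemerin without classical signalling and that in mouse neutrophils pairs with CXCR2, was the most abundant of the 10. Its level ran from 3862 to 9032 CPM in Ifngr1_KO libraries, with a median of 5783 CPM, and from 4488 to 10198 CPM in WT libraries, with a median of 7315 CPM. The ranges overlapped widely, and the Ifngr1_KO library was lower in all 8 mice. The log2 fold change was -0.32 (SE 0.08) and just missed the threshold (edgeR adjusted p = 0.0697). It passed without mouse 7 (-0.28, adjusted p = 0.0205), with DESeq2 (0.00770) and with limma-voom (0.00775). It shrank to -0.18 (adjusted p = 0.726) with the mitochondrial covariate and to -0.21 (0.262) with library totals.

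FPR1 and FPR2 detect the N-formyl peptides that bacteria and broken mitochondria release, FPR1 with the higher affinity. The genes lie side by side on chromosome 17, Fpr1 at 17876471 to 17883940 on the minus strand and Fpr2 at 17887824 to 17893952 on the plus strand. Fpr1 ran from 870 to 1683 CPM in Ifngr1_KO, with a median of 1376 CPM, and from 1160 to 2050 CPM in WT, with a median of 1836 CPM. It was lower in Ifngr1_KO in 8 of 8 mice. In mouse 7 the libraries were nearly level in CPM, at 1683 CPM in Ifngr1_KO and 1711 CPM in WT. That depended on how the libraries were scaled. TPM takes counts per exon length and scales each library to the same sum. On that scale, Fpr1 in mouse 7 was 1637 TPM in Ifngr1_KO and 2575 TPM in WT. Its log2 fold change was -0.41 (SE 0.09, edgeR adjusted p = 0.0358). Fpr1 is a call at the threshold: it strengthened without mouse 7 (-0.47, adjusted p = 0.00184) and was lost when any other mouse was left out (adjusted p = 0.0716 to 0.116, log2 fold changes of -0.42 to -0.38). The call was also lost with the mitochondrial covariate (-0.48, adjusted p = 0.215), with library totals (-0.30, 0.0888), with no filter (-0.44, 0.0680) and with a filter on mean CPM (-0.33, 0.0774).

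In CPM, Fpr2 was lower in Ifngr1_KO in 7 of 8 mice and far higher in the other one. Its level ran from 198 to 729 CPM in Ifngr1_KO, with a median of 314 CPM, and from 358 to 545 CPM in WT, with a median of 425 CPM. The value of 729 CPM belonged to mouse 7, and the other 7 Ifngr1_KO libraries reached at most 368 CPM. The size of this excess depended on the scale. As TPM, Fpr2 in mouse 7 was 725 in Ifngr1_KO and 606 in WT, and the other Ifngr1_KO libraries reached at most 588 TPM. Over all 8 mice the log2 fold change was -0.42 (SE 0.18, edgeR adjusted p = 0.289), and with the mitochondrial covariate it was -0.90 (SE 0.19, adjusted p = 0.0913). Without mouse 7 it was -0.59 and passed the threshold (adjusted p = 0.00689), with 296 ± 65.2 CPM in Ifngr1_KO and 441 ± 61.5 CPM in WT (SD, n = 7). The span of Fpr3 overlaps Fpr2 on the same strand, so reads of the pair could be split in more than 1 way. Fpr3 averaged 2.504 CPM in Ifngr1_KO and 3.67 CPM in WT, estimates that come out of the same split. How the reads were divided was not tested.

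Ptafr encodes the receptor for platelet-activating factor, a phospholipid that primes neutrophils and makes vessels leak. It ran from 291 to 519 CPM in Ifngr1_KO libraries, with a median of 367 CPM, and from 349 to 798 CPM in WT libraries, with a median of 553 CPM. The ranges overlapped, and the Ifngr1_KO library was lower in all 8 mice, by as little as 0.05 on the log2(CPM + 1) scale in mouse 2. The log2 fold change was -0.46 (SE 0.11), with an edgeR adjusted p of 0.0480, only just under the threshold. The call was lost under DESeq2 size factors (adjusted p = 0.0532), without any of mice 3, 4, 5, 6, 8 and 9 (0.0666 to 0.141, at -0.49 to -0.42) and with the mitochondrial covariate, where the log2 fold change was -0.23 (adjusted p = 0.712). In mice 2 and 4, where the mitochondrial share was lower in Ifngr1_KO, the differences were -0.05 and -0.18, the smallest of the 8. The receptors differed in this. In mice 2 and 4, Fpr2 was -0.89 and -0.69, against a mean of -0.41 over all mice. Fpr1 was -0.31 and -0.47 (mean -0.41), Ccr1 -0.18 and -0.56 (mean -0.24), Ccrl2 -0.20 and -0.17 (mean -0.32) and Cxcr2 0.0077 and -0.088 (mean -0.26).

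C5ar1, the receptor for C5a, was lower in Ifngr1_KO in 8 of 8 mice. It ran from 2598 to 3899 CPM in Ifngr1_KO, with a median of 3294 CPM, and from 3244 to 4765 CPM in WT, with a median of 4345 CPM. The log2 fold change was -0.37 (SE 0.09) and did not pass the threshold (edgeR adjusted p = 0.0601). It passed without mouse 7 (-0.32, adjusted p = 0.0213), with a filter on mean CPM (0.0499), with DESeq2 (0.00607) and with limma-voom (0.00817). It shrank to -0.24 (adjusted p = 0.662) with the mitochondrial covariate, and the differences of mice 2 and 4, -0.20 and -0.17, were the smallest of the 8. C5ar2, another C5a receptor, named here after its values were seen, averaged 16.7 ± 8.71 CPM in Ifngr1_KO and 22.5 ± 8.31 CPM in WT (SD, n = 8).

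Ltb4r1, which encodes the high-affinity leukotriene B4 receptor BLT1, had low values in both genotypes of 2 mice. In mice 5 and 9 it had 7.69 and 2.93 CPM in Ifngr1_KO and 4.97 and 1.13 CPM in WT, while the other 6 mice had 64.1 to 102.6 CPM in Ifngr1_KO and 15.8 to 79.7 CPM in WT. Both libraries of mice 5 and 9 were therefore lower than the 12 others, whatever the genotype. Ltb4r1 was higher in the Ifngr1_KO library of 7 of 8 mice, mouse 7 being the exception, with a log2 fold change of 0.75 (SE 0.25, edgeR adjusted p = 0.165). Without mice 5 and 9 it was 0.69 (adjusted p = 0.396), DESeq2 on all mice gave 0.76 (adjusted p = 0.0396), and the mitochondrial covariate gave 1.27 (adjusted p = 0.208).

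**Figure D3:**
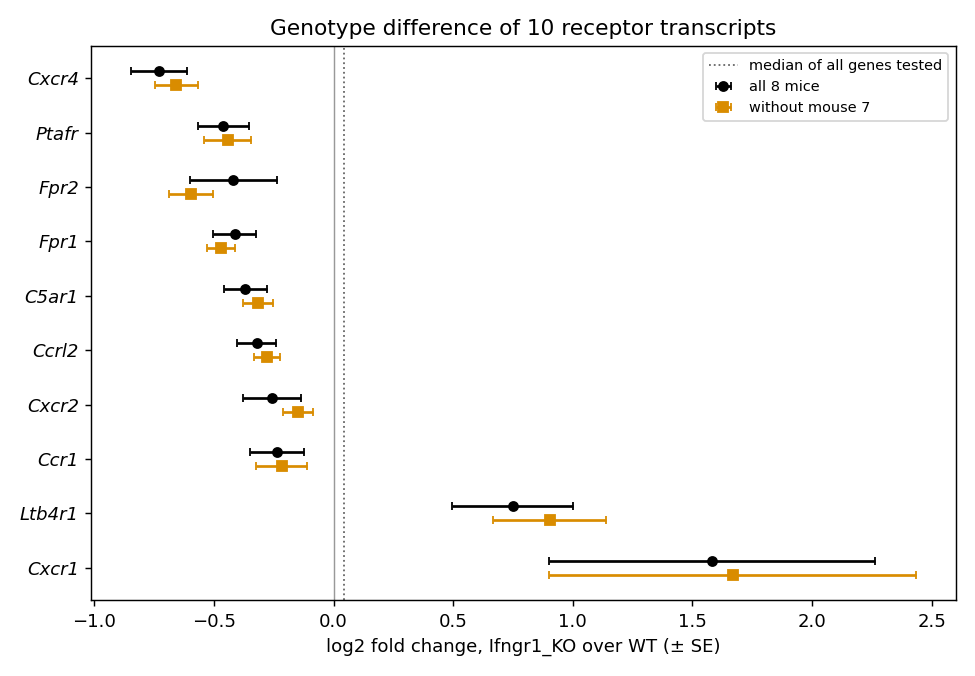
Log2 fold change, Ifngr1_KO over WT, of each receptor (x axis) ± SE from edgeR, for all 8 mice (black circles) and without mouse 7 (orange squares), with the median of all genes tested as a dotted line. Cxcr4 at -0.73 lies lowest, Fpr2 moves from -0.42 to -0.59 when mouse 7 is left out, and Ltb4r1 and Cxcr1 lie above 0 with wide errors.

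Within mice the receptors moved in different ways. Of the 10, 5 were lower in Ifngr1_KO in 8 of 8 mice (Cxcr4, Ccrl2, Fpr1, Ptafr and C5ar1), a pattern that 4.93% of all genes tested showed. A further pair, Cxcr2 and Fpr2, was lower in 7 of 8, which makes 7 receptors lower in at least 7 mice against 11.4% of all genes, and Cxcr1 and Ltb4r1 were higher in 7 of 8, a pattern in that direction for 10.2% of all genes. No receptor had groups free of overlap, against 1.48% of all genes with Ifngr1_KO below WT and 0.173% above. In CPM, the Ifngr1_KO library of mouse 7 had the lowest value of its group for Cxcr2, Ccrl2, Ptafr and C5ar1, and the highest for Fpr1 and Fpr2. As TPM its Fpr1 value was not the highest, at 1637 TPM in a group range of 1419 to 2852 TPM.

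**Figure D4:**
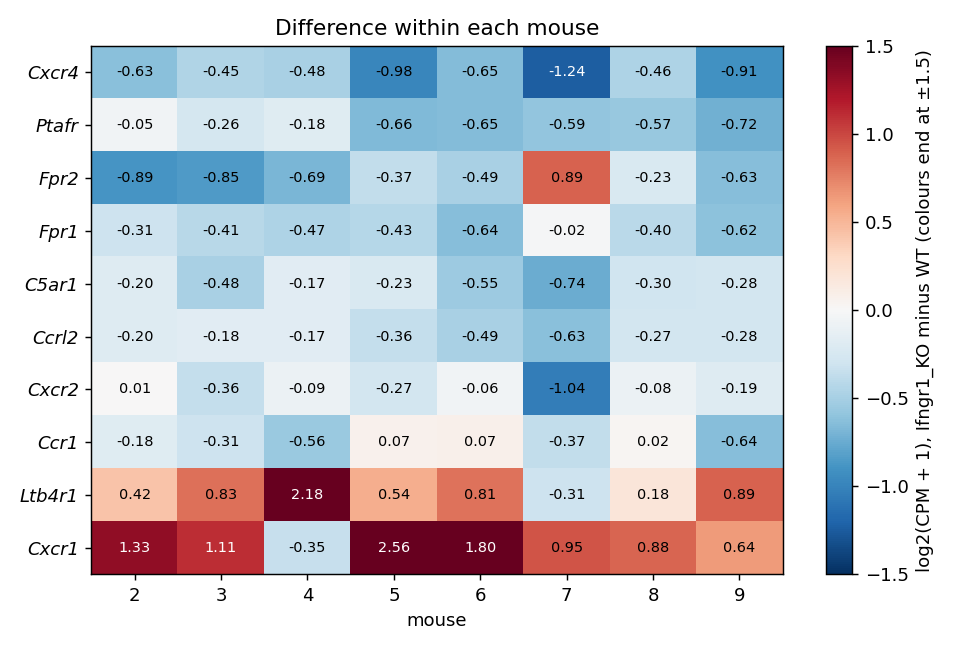
Difference in log2(CPM + 1), Ifngr1_KO minus WT, for each receptor (rows) in each mouse (columns), blue where Ifngr1_KO was lower and red where it was higher. Cxcr4 runs from -1.24 to -0.45, and mouse 7 holds both the lowest Cxcr2 difference (-1.04) and the only positive Fpr2 difference (0.89).

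Levels of different receptors were compared on a scale per exon length, as TPM (counts per exon length, scaled to the same sum in each library) computed here from the counts. Ccrl2 stood first, at 4490 ± 1619 TPM in Ifngr1_KO and 5622 ± 1383 TPM in WT (SD, n = 8), followed by C5ar1 at 2496 ± 523 TPM in Ifngr1_KO and 3280 ± 331 TPM in WT. Fpr1 came next, at 1969 ± 464 TPM in Ifngr1_KO and 2708 ± 492 TPM in WT. Ccrl2 exceeded C5ar1 in all 16 libraries, while C5ar1 exceeded Fpr1 in 13 of 16. Cxcr2 and Fpr2 followed and did not separate, Cxcr2 being higher in 6 of 8 Ifngr1_KO libraries and in 2 of 8 WT libraries. Below them were Ccr1, Ptafr and Cxcr4, Ccr1 above Ptafr in 11 of 16 libraries and Ptafr above Cxcr4 in 15 of 16. Ltb4r1 came after these, at 88.1 ± 59.9 TPM in Ifngr1_KO and 61.4 ± 49.3 TPM in WT. Cxcr1 was last, at 10.3 ± 4.89 TPM in Ifngr1_KO and 5.30 ± 4.11 TPM in WT. With the longest transcript in place of merged exons, only Cxcr2 and Fpr2 exchanged places.

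**Figure D5:**
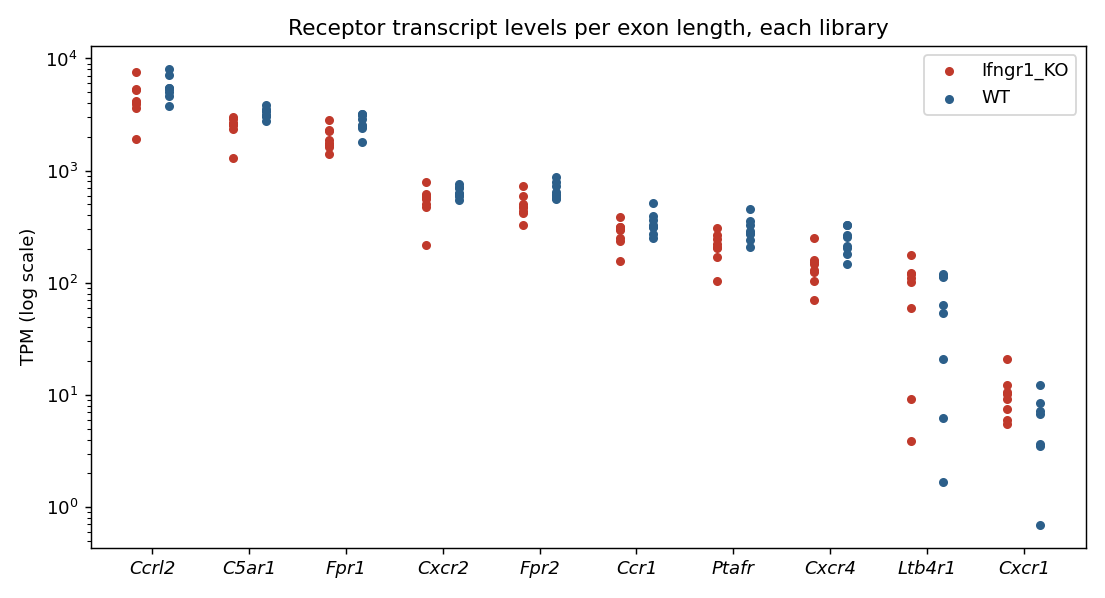
TPM of each receptor (y axis, log scale) in each Ifngr1_KO library (red, left) and WT library (blue, right), ordered by the mean over 16 libraries. Levels run from Ccrl2, at 1915 TPM or more in every library, to Cxcr1, whose WT library of mouse 5 is at 0 and cannot be drawn on this axis.

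The receptors differed in how far they spread between mice of 1 genotype. The coefficient of variation was lowest for Ccr1 in Ifngr1_KO (11.8%) and for Cxcr2 in WT (9.00%). It was 14.3% in Ifngr1_KO and 11.1% in WT for C5ar1, and 30.4% in Ifngr1_KO and 28.8% in WT for Cxcr4. It was highest for Ltb4r1 in Ifngr1_KO (59.7%) and for Cxcr1 in WT (81.9%). Of 4647 other genes with a mean of at least 10 CPM, those whose log2 CPM followed Cxcr4 most closely after removal of the group means were Zfp36, an mRNA decay factor, and Ppp1r15a, a stress-induced phosphatase regulator (Pearson r = 0.874 and 0.873 over 16 libraries, Spearman rho = 0.841 and 0.932), then Stx5a (r = 0.862, rho = 0.847). Those nearest to Fpr1 were Glrx, Esd and Lyz2 (r = 0.856, 0.850 and 0.848, rho = 0.571, 0.818 and 0.635), and those nearest to Ptafr were Usp18, Nfe2l2 and Acod1 (r = 0.899, 0.892 and 0.879, rho = 0.882, 0.850 and 0.909). These values describe libraries that share mice and sequencing depth and carry no test.

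Genes around the receptors were read from lists of other chemoattractant receptors, ligands and the enzymes that make or remove them, Gi signalling and receptor desensitization. Of 13 tested members among the 34 other receptors, 1 rose and none fell, and 8 of the 34 were at 0 in every library. The gene that rose was Gpr35, a receptor reported to bind kynurenic acid, with 77.4 to 133 CPM in Ifngr1_KO and 29.0 to 76.1 CPM in WT, so that the groups did not overlap (log2 fold change 1.23, SE 0.17, edgeR adjusted p = 0.00270). Gpr84, a receptor for medium-chain fatty acids and the most abundant of this list, had 727 ± 128 CPM in Ifngr1_KO and 705 ± 69.2 CPM in WT (SD, n = 8). The list median was 0.07.

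Of 26 tested ligands and ligand enzymes, 2 fell and 1 rose, with a list median of 0.12. The Ccr1 ligand Ccl5 fell to 50.7 ± 20.8 CPM in Ifngr1_KO, against 472 ± 120 CPM in WT (-3.29, SE 0.23, edgeR adjusted p = 1.6e-05). Pla2g7, the secreted acetylhydrolase that breaks down platelet-activating factor, fell to 1100 ± 228 CPM in Ifngr1_KO, against 1771 ± 184 CPM in WT, with no overlap (-0.71, SE 0.11, edgeR adjusted p = 0.00543). The Pla2g7 call was lost with the mitochondrial covariate (-0.53, adjusted p = 0.245). The Cxcr2 ligand Cxcl3 rose to 23.4 ± 7.93 CPM in Ifngr1_KO, against 10.9 ± 4.03 CPM in WT (1.12, SE 0.21, edgeR adjusted p = 0.0167). The Cxcl3 call was lost without mice 5 and 9 (1.15, adjusted p = 0.111), without any of mice 3, 8 and 9 (1.02 to 1.11, 0.0570 to 0.0591), and with the mitochondrial covariate (1.41, 0.0783). Without mouse 7 this list had 4 genes lower and 2 higher.

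None of 26 Gi signalling genes and none of 17 tested desensitization genes passed the edgeR threshold, with list medians of -0.10 and -0.02. Their most abundant members were Rac2, the Rac GTPase of blood cells, at 3808 ± 615 CPM in Ifngr1_KO and 3986 ± 475 CPM in WT, and Gpsm3, a modulator of G proteins, at 337 ± 69.6 CPM in Ifngr1_KO and 341 ± 62.5 CPM in WT (SD, n = 8). Rgs19, which speeds the shut-off of Gi, had a log2 fold change of -0.23 (SE 0.11, edgeR adjusted p = 0.352). Of the same family, and chosen after their values were seen, Rgs1 had 0.69 (adjusted p = 0.0814) and Rgs2 had 0.55 (adjusted p = 0.0882). Each was higher in Ifngr1_KO in 7 of 8 mice, against 10.2% of all genes higher in at least 7. Both lie on chromosome 1 within 20 Mb of Ptprc, so donor sequence there and the loss of Ifngr1 cannot be told apart for them.

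Markers that could move with the receptors were read in the same fit, and the called ones are named after their values were seen. In bulk samples, fewer cells of a type and less RNA per cell cannot be told apart. Of 14 neutrophil genes, Mcemp1 fell, none rose and the median log2 fold change was -0.30, close to the receptors' -0.34. Of 7 tested genes of immature neutrophils, Ltf and Ngp fell, both proteins of the secondary granules, and the summed level of the list was 1062 to 5087 CPM in Ifngr1_KO and 1658 to 7398 CPM in WT, lower in Ifngr1_KO in 8 of 8 mice. Of 9 tested genes of monocytes, macrophages and Kupffer cells, Ly6c2 and Adgre1 fell. The sum of the list was 1508 to 2678 CPM in Ifngr1_KO and 2257 to 3558 CPM in WT, also lower in Ifngr1_KO in 8 of 8 mice. Most of that sum was Csf1r, lower in 6 of 8 mice, and Ly6c2, lower in 8 of 8. C1qa, C1qb and Cx3cr1 were each lower in 4 of 8 and higher in 4, and C1qc and Cd5l were lower in 5 of 8. Ccr2 was lower in 4 mice and higher in 3. Clec4f and Timd4, which with Vsig4 define Kupffer cells, averaged 0 and 0.150 CPM in Ifngr1_KO and 0.0631 and 0.0277 CPM in WT. Of 7 tested B cell genes 1 fell, Ighm, and of the tested dendritic cell (2), T and NK cell (3), eosinophil, basophil and mast cell (2), hepatocyte (10), endothelial and stromal (4) and platelet and erythroid genes (6) edgeR called none. The hepatocyte sum was 3251 to 7051 CPM in Ifngr1_KO and 3756 to 7621 CPM in WT, and it was lower in Ifngr1_KO in 8 of 8 mice. Most of that sum was Hp, which was lower in 8 of 8 mice, while Alb, Apoa1, Apoa2, Ttr and Fgb were each lower in 4 of 8 and higher in 4. The part of neutrophil maturity or of other cells in the receptor differences was not tested.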

How the data were processed

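Whole-number estimated counts per Ensembl gene were deposited for 16 libraries, with 1 column each and no scaling. The submitters' processing notes name Salmon 0.14.2, DESeq2 1.22.1 and the build mm10. The roles of these tools, the annotation used and any filtering are not stated there. Per the labels' protocols, each library was made with oligo-dT primers and 13 PCR cycles, without molecular identifiers or strand marking stated. Intervals of counts would cover counting error only.

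Names, positions and exon lengths came from GENCODE M21 (mm10), which lacked 37 identifiers, holding at most 9.4e-04% of any library. In R 4.3.3 with edgeR 4.0.16, filterByExpr kept 9851 genes with 99.7% of counts, TMM scaled the libraries, and the robust quasi-likelihood F-test compared Ifngr1_KO with WT with mouse as a block, since the design text states that both libraries of a number come from 1 mouse. Each SE was derived from the F statistic, as the absolute fold change (log2) over its root. Within mice, deviations from group means correlated across genes at 0.176 on average (0.0357 to 0.425), against -0.0233 between mice. TPM divides counts by merged exon length. Within-mouse differences use log2(CPM + 1). Libraries of 12.5 to 21.7 M counts set the precision, so genes of a few CPM rest on few counts.

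The members and the 15 gene lists were chosen with earlier results of these data known, so lists carry no test. Named beside the 10 receptors were up to 8 called genes per pathway list, or the most abundant ones where none was called (1 gene that this rule names is not reported here), marker genes by level, and the 3 genes nearest to each called receptor. Alternatives used DESeq2 1.42.0, limma 3.58.1, other scalings and filters, no block, a mitochondrial covariate and each mouse left out. Leaving out mice 5 and 9 was added after seeing the data.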

Additional observations from a re-analysis of the deposited data

Results flagged for a closer look

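In 3 of 20 groups of 8 libraries, 1 value stood far from the other 7 (Dixon's test at the 95% level, which chance passes in about 1 of 20 groups). Fpr2 in the Ifngr1_KO library of mouse 7 was 729 CPM, against at most 368 CPM in the other Ifngr1_KO libraries. As TPM it was 725, against at most 588 TPM in the others. Fpr1 in the WT library of mouse 3 was 1160 CPM, against at least 1711 CPM in the other WT libraries, and the Ifngr1_KO library of mouse 3 was also the lowest of its group at 870 CPM. Ccr1 in the WT library of mouse 9 was 699 CPM, against at most 512 CPM in the other WT libraries.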

How the results depend on the processing

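All 10 receptors kept their direction under every alternative run (Cxcr1 was not tested at a mean CPM of at least 10), although Cxcr2 was only -0.0082 with the mitochondrial covariate. Leaving out each mouse in turn gave log2 fold changes of -0.77 to -0.66 for Cxcr4 (called 8 of 8 times), -0.47 to -0.38 for Fpr1 (1 of 8), -0.51 to -0.42 for Ptafr (2 of 8), -0.39 to -0.32 for C5ar1, -0.34 to -0.28 for Ccrl2 and -0.59 to -0.34 for Fpr2 (1 of 8 each, without mouse 7). These runs called 1 to 6 receptors lower, 144 to 334 genes lower and 19 to 78 higher, and in the 4 pathway lists 2 to 4 lower and 1 to 3 higher. Over all mice 229 genes were lower and 47 higher. Without the replicate block on mouse, Cxcr4 was -0.73 (edgeR adjusted p = 0.0779), Fpr1 -0.41 (0.150) and Ptafr -0.47 (0.146), and 0 receptors were called. That fit called 216 genes lower and 52 higher. DESeq2 size factors gave Ptafr -0.45. Library totals, which moved the median of all genes to 0.16, gave Fpr1 -0.30 and Ptafr -0.35, with 1 receptor lower, 102 genes higher and 5 pathway genes higher. No filter gave Fpr1 -0.44 and Ptafr -0.49, with 1 receptor lower and 31 genes higher. A mean CPM of at least 10 gave Fpr1 -0.33 (lost) and C5ar1 -0.28 (called), with 133 genes and 5 pathway genes higher. The mitochondrial covariate gave Cxcr4 -0.49, Fpr1 -0.48 and Ptafr -0.23, with 0 receptors, 85 genes lower and 8 higher, and 1 pathway gene each way. DESeq2 also called Cxcr1 (1.61), Ccrl2 (-0.31), Ltb4r1 (0.76) and C5ar1 (-0.36), with 5 receptors lower and 2 higher, 572 genes lower and 488 higher, and 5 pathway genes lower and 7 higher. Limma-voom also called Ccrl2 (-0.28), Fpr2 (-0.51) and C5ar1 (-0.33), with 6 receptors lower, 425 genes lower and 172 higher, and 6 pathway genes each way. Without mice 5 and 9, chosen after seeing the data, Cxcr4 was -0.65, Fpr1 -0.37 and Ptafr -0.38, with 0 receptors, 116 genes lower and 13 higher, and 1 pathway gene higher. The longest transcript moved the WT ratio of Fpr2 to Fpr1 to 0.287, against 0.251. The cause of the lost calls was not tested. Depth limits Cxcr1 most, at 0 to 217 counts per library.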

Other observations

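Ltb4r1 was not alone in being low in both libraries of mice 5 and 9. A search made after its values were seen found 27 tested genes whose 4 lowest libraries were those of mice 5 and 9 with at least a 2-fold gap to the next library, and 0 such genes for each other pair of mice. Among them were Itm2b, with at most 444 CPM in these 4 libraries and at least 910 CPM in the others, Creg1, with at most 86.3 CPM and at least 176 CPM, and Gadd45a, with at most 40.3 CPM and at least 83.0 CPM. Gnai2, a Gi alpha subunit also named after its values were seen, ranged from 91.3 to 4197 CPM in Ifngr1_KO libraries and from 62.0 to 2490 CPM in WT libraries. The labels used here give no day or batch for these mice.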
